A study of Mus musculus with 9 samples.

Results

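A set of 9 immediate early genes of 3 families were followed in mouse brown fat cells exposed to 2 compounds: Egr1, Egr2 and Egr3, Ier2, Ier3 and Ier5, and Nr4a1, Nr4a2 and Nr4a3. They were chosen by symbol, and each of the 9 was measured by a single transcript cluster of the array, out of 30860 genes tested. The cells were fully differentiated brown fat cells in culture from C57BL/6 mice, and all groups were harvested after 8 h. One group received the solvent DMSO alone, one AM73 at 10 µM and one AM80 at 10 µM; the series title names them as chemical activators of PPARGC1a1, a form of the coactivator PGC-1α. The labels name no transgene or deletion and give neither age nor sex, and the origin of the culture is not given in the sources used here. Each group held 3 arrays, 9 in all. The labels call the replicates technical and do not say whether separate cultures were used, so p-values measure only the spread between these arrays, and a group may stand for 1 culture.

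Immediate early genes are transcribed within minutes of a growth factor, hormone or stress signal, without new protein synthesis, because factors such as SRF and CREB already sit on their promoters and are switched on by phosphorylation. Their mRNAs are short-lived, and in many cell types the first wave has subsided within hours. Egr proteins are zinc finger transcription factors that bind GC-rich sites, Nr4a proteins are orphan nuclear receptors that need no ligand, and the Ier proteins share a name for their fast induction rather than one function. In brown fat, the cAMP signal of noradrenaline is a known inducer of Nr4a genes.

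After 8 h a single one of these genes stood clearly apart from the solvent control. Ier3, a stress-induced regulator of cell survival and ERK signalling, was 2.76-fold higher with AM73 and 2.65-fold higher with AM80 (log2 differences of 1.47 ± 0.26 and 1.41 ± 0.26, SE, n = 3 per group, by limma), and the second difference passed the test. Ier2 was 1.66-fold higher with AM80 than with AM73. None of the 3 Egr and none of the 3 Nr4a genes passed in any comparison. Values are log2 expression values, and a gene was called at a Benjamini-Hochberg adjusted p under 0.05 over all genes in limma. Between AM80 and DMSO 1 of the 9 genes was called, against 13.9% of all genes tested. Between AM73 and DMSO it was 0 of 9, against 0.12% of all genes, and between AM80 and AM73 it was 1 of 9, against 19.1%. At an unadjusted p under 0.05 the counts were 1 with AM73, 4 with AM80 and 2 between the compounds, against 7.66%, 25.1% and 30% of all genes. The groups did not overlap for 2, 3 and 2 of the 9 genes, against 12.6%, 25.5% and 31.5%. Values above 0 were found for 6, 8 and 6 of them, against 44.7%, 57.1% and 61.3%. For any difference among the 3 groups, Ier3 alone passed limma's moderated F-test (adjusted p = 0.00551), and 16.9% of all genes did. With 9 genes the called shares lie near those of all genes, so these counts are no result about the families as such.

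The arrays themselves differed in ways that bear on every value below. The AM80 arrays lay at 31.2 to 74.7 on the first principal component, DMSO replicate 3 at 2.51 and the other 5 arrays between −41.6 and −22.6. The poly-A controls, RNAs spiked in before labelling, had medians of 4.66 ± 0.16 on the DMSO arrays, 4.37 ± 0.30 on the AM73 arrays and 5.50 ± 0.33 on the AM80 arrays (SD, n = 3 each), and every difference below is relative to the typical gene of an array. Scaled to these controls, the median of all genes was −0.80 for AM80 against DMSO, 0.26 for AM73 against DMSO and −1.05 for AM80 against AM73. The array column names end in a number read here as a plate column, which no label explains: all AM80 arrays, DMSO replicate 2 and AM73 replicate 2 carry 5, and the other 4 arrays carry 7. The 14 brown adipocyte markers had a mean log2 level of 6.61 to 7.03 per array, with Fabp4 the highest and Dio2 at background (group means of 2.13 to 2.31). With DMSO, Cox8b (2.96), Ucp1 (3.97), Cidea (4.14) and Prdm16 (4.45) were low too, while Elovl3 (8.44), Cox7a1 (7.55) and Ebf2 (7.08) were not. The mean level was 2.47 to 2.76 for 7 macrophage, 2.38 to 2.72 for 4 endothelial, and 4.71 to 5.14 for 10 preadipocyte and fibroblast markers. The background probe sets that match no mouse gene had array medians of 2.07 to 2.32. Fewer cells of a type and less RNA per cell cannot be told apart in such bulk samples.

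Promoter sequence was in the RefSeq table (GRCm38.p6) for 6 of the 9 genes. The 250 bases before the annotated start are printed for 4 of them: Ier3, the gene that changed, and Egr2, Nr4a1 and Nr4a3. The windows of Egr2, Nr4a1 and Nr4a3 carry the sites by which signals are known to reach immediate early genes. Their levels passed in no comparison in the reported setting. In some alternatives they passed, Nr4a1 and Nr4a3 only when scaled to the poly-A controls, and Nr4a3 was at background. Capitals mark matches, searched on both strands, to the CRE core TGACG, the CArG box bound by SRF, the HIF core ACGTG and the EGR motif GCGNGGGCG. A CRE core can overlap a HIF core, as it does once in Nr4a3.
Ier3 (chr17:35821463-35821712, plus strand): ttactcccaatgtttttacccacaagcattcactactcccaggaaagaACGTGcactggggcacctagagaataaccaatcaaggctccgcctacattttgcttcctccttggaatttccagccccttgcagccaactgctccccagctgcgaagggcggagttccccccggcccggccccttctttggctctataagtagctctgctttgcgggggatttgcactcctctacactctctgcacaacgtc
Egr2 (chr10:67537619-67537868, plus strand): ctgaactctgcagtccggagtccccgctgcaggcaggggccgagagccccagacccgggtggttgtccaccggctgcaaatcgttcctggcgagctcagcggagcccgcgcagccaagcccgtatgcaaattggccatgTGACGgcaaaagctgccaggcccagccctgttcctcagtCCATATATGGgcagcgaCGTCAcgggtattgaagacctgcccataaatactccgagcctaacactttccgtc
Nr4a1 (chr15:101266596-101266845, plus strand): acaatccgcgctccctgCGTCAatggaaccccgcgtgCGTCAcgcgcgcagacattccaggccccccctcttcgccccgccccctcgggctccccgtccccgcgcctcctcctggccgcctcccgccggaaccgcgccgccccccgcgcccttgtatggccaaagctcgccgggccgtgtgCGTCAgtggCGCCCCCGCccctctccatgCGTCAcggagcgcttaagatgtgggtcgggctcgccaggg
Nr4a3 (chr4:48045055-48045304, plus strand): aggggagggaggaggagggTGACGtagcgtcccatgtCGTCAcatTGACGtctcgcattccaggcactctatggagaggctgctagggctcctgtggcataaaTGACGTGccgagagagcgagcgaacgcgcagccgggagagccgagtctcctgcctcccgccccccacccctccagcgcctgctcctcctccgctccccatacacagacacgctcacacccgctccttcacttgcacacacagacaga
The Ier3 window held 1 HIF core, 202 bases before the start, and no match to the other motifs. A HIF core was present in 16.6% of all 32851 windows of this length, so the match is a description of the letters only. The Egr2 window, 1 of 5 annotated starts, held a CArG box 72 bases before the start, a motif found in 1.47% of windows, and 2 CRE cores, found in 17.8%. The window at the first annotated Egr2 start, not printed, held neither motif but 2 overlapping HIF cores, 27 and 26 bases before that start. Nr4a1, Nr4a2 and Nr4a3 each held 4 CRE cores. The windows of Nr4a1 and Nr4a2 also held 1 EGR motif each, which 4.7% of windows had. The Ier5 window held none of the 4 motifs.

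Among the Ier genes, Ier3 (cluster 17337228, mm10 chromosome 17, 35821684 to 35822923, plus strand) had the largest differences from DMSO. Its log2 levels were 5.79, 5.62 and 6.62 on DMSO replicates 1, 2 and 3, then 7.83, 7.21 and 7.39 with AM73, and 7.62, 7.38 and 7.25 with AM80. Every array of either compound lay above every DMSO array, and DMSO replicate 3 was the highest of its group. Means were 6.01 ± 0.54, 7.48 ± 0.32 and 7.42 ± 0.19 (SD, n = 3). Groups without overlap in the upward direction occurred in 5.71% of all genes for AM73 and in 14.9% for AM80. The AM80 difference had a 95% interval of 0.83 to 1.98 and an adjusted p of 0.00768 in limma. The AM73 difference, with an interval of 0.89 to 2.04, had an adjusted p of 0.0939, although its unadjusted p was 0.00021 against 0.000289 for AM80; the adjustment runs over all genes of a comparison, and fewer genes moved with AM73. Both comparisons share the DMSO arrays.

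**Figure D1:**
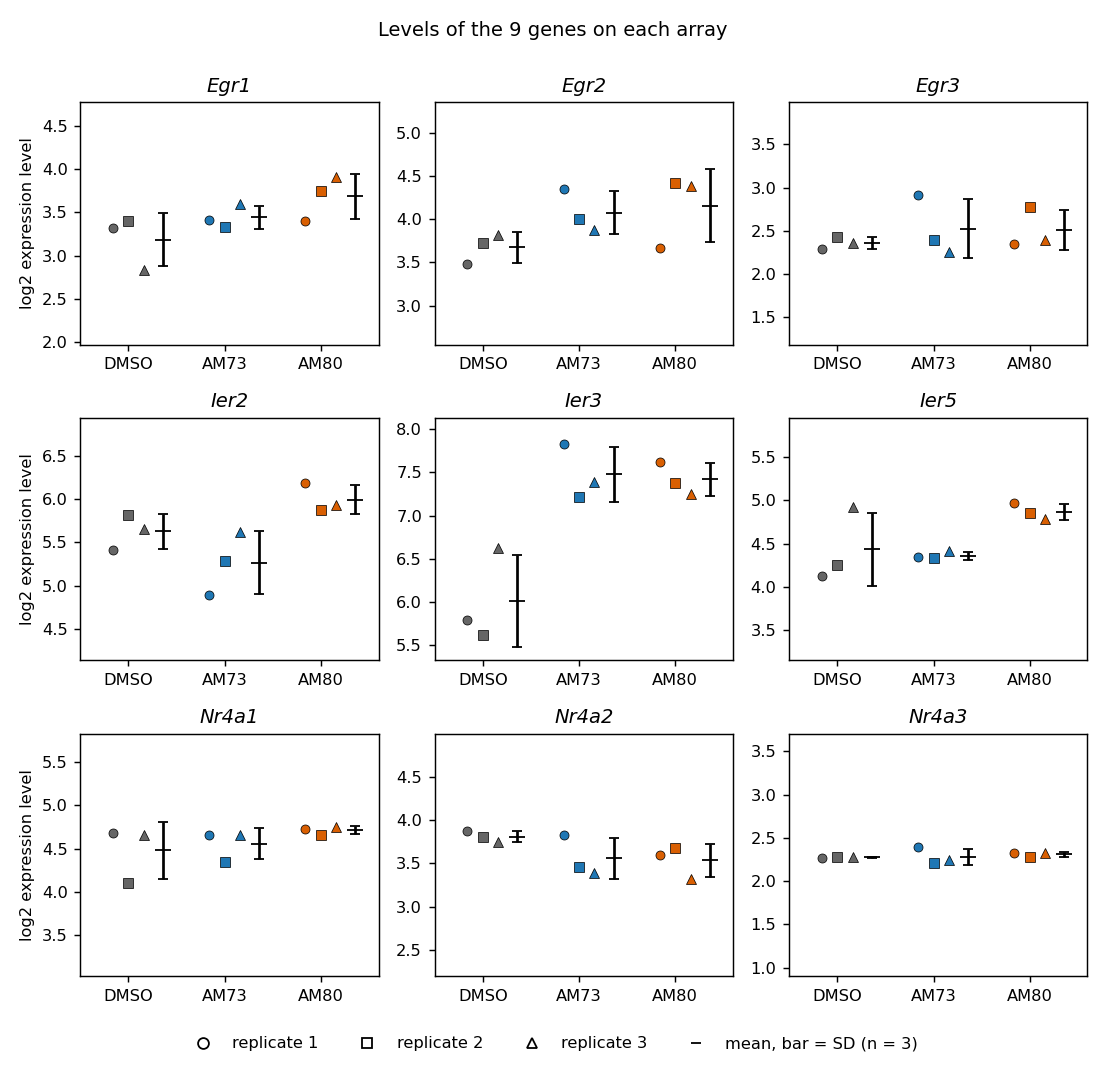
Log2 expression level of each of the 9 genes (vertical axis, a span of equal height in every panel) on each array, by treatment (horizontal axis); symbols mark the replicate number and the bars the mean and SD of 3 arrays. The DMSO arrays of Ier3 lie between 5.62 and 6.62, and all 6 arrays of the compounds lie between 7.21 and 7.83; in the Egr and Nr4a panels the groups lie close together.

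The Ier3 difference between the compounds was −0.06 ± 0.26 (AM80 minus AM73, 95% interval −0.63 to 0.51, adjusted p = 0.910 in limma). The width of that interval means that the compounds are not shown to act alike on this gene. Scaled to the poly-A controls, the Ier3 difference was −1.19 (adjusted p = 0.000184 in limma), beside a median of −1.05 for all genes. In that setting 28182 of all 30860 genes passed, so the call says little about Ier3. With the bright background level in the fit the difference was −0.71 (adjusted p = 0.301). Without DMSO replicate 3, Ier3 differed from DMSO by 1.77 with AM73 (adjusted p = 0.0187) and by 1.71 with AM80 (adjusted p = 0.00135), so the array that stood apart lowered both differences. Within plate column 5, with a single DMSO and a single AM73 array, the differences were 1.59 with AM73 and 1.80 with AM80, and within column 7 the AM73 difference was 1.41; none of all genes passed within a column, so these are values with no reading of their p. With the column as a term, the AM80 difference was 1.74 (adjusted p = 0.0255). Scaled to the poly-A controls it was 0.57 (adjusted p = 0.0595) and the AM73 difference 1.75 (adjusted p = 1.73e-05). Over all alternatives the AM80 difference stayed above 0, and outside the column subsets it passed in 19 of 21, with adjusted p from 0.00135 to 0.188; the other miss was the methods' t-test (adjusted p = 0.188). The AM73 difference also stayed above 0, and outside those subsets it passed in 4 of 21, with adjusted p from 1.73e-05 to 0.629, median centring (0.0478) and array weights (0.0229) being the other two.

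**Figure D2:**
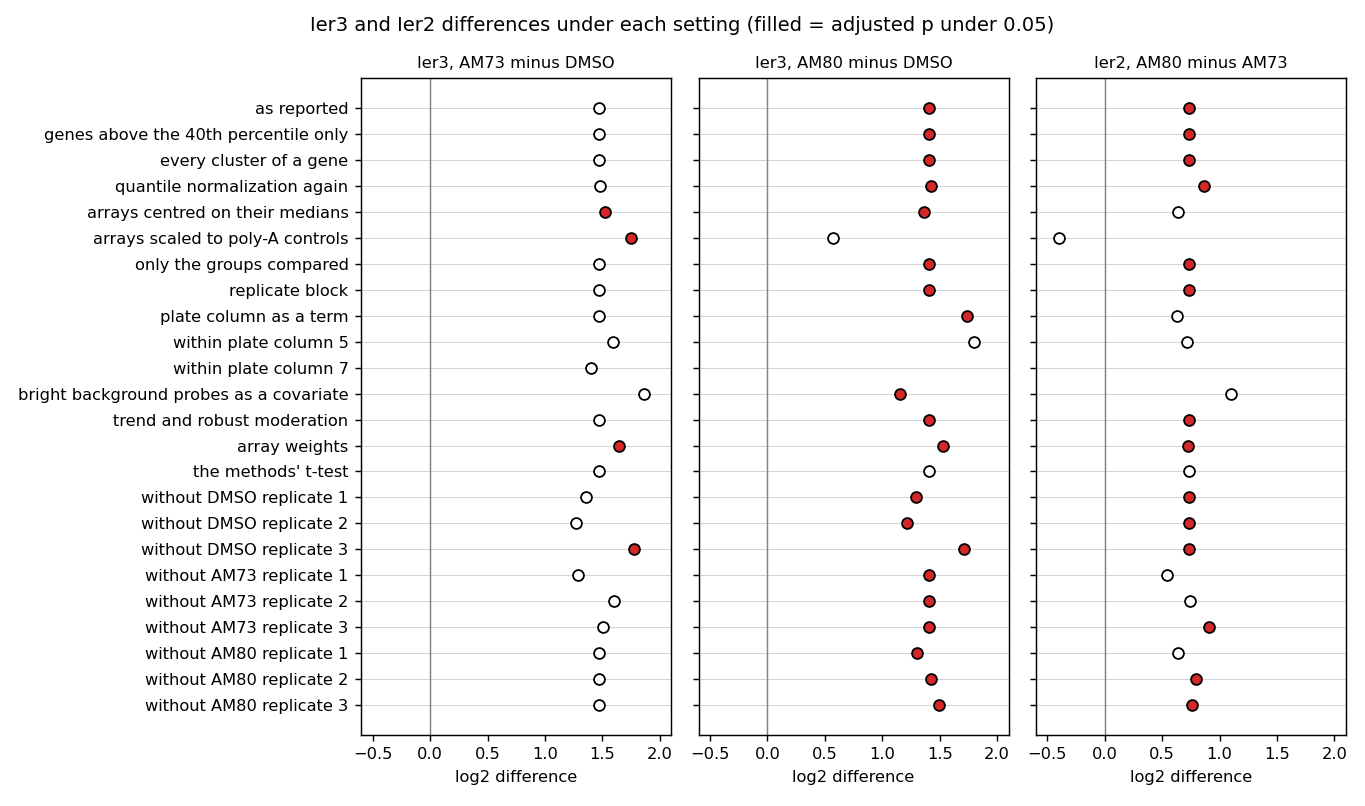
Log2 difference (horizontal axis) of Ier3 for each compound against DMSO and of Ier2 between the compounds, under the reported setting and each alternative (vertical axis); filled points had an adjusted p under 0.05. Ier3 points lie above 0 throughout, from 0.57 to 1.87, while Ier2 lies below 0 with poly-A scaling (−0.40).

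Ier2 (cluster 17511130, chromosome 8, 84661331 to 84662852, minus strand) encodes a nuclear protein induced by growth factors. It read 5.41, 5.82 and 5.65 with DMSO, 4.89, 5.28 and 5.62 with AM73, and 6.18, 5.87 and 5.93 with AM80. The AM80 arrays lay above all others, and the AM73 arrays were lower or within the DMSO range. AM80 exceeded AM73 by 0.73 ± 0.19 (95% interval 0.31 to 1.15, adjusted p = 0.0221 in limma), a separation of groups that 18.9% of all genes showed upward. Against DMSO the values were 0.37 ± 0.19 with AM80 and −0.36 ± 0.19 with AM73 (adjusted p = 0.274 and 0.691), neither of which passed. The difference between the compounds passed in 13 of 21 alternatives, leaving aside the subset within a plate column. It missed the threshold without AM73 replicate 1 (0.54, adjusted p = 0.0686), AM73 replicate 2 (0.74, adjusted p = 0.0629) or AM80 replicate 1 (0.64, adjusted p = 0.0810). It also missed it with median centring (0.64, adjusted p = 0.0541) and in the methods' t-test (adjusted p = 0.170). With the plate column as a term it was 0.63 (adjusted p = 0.135), within column 5 it was 0.71, and under poly-A scaling it turned to −0.40 (adjusted p = 0.180). The bright background probes averaged 5.91 ± 0.21 with AM80 and 5.04 ± 0.49 with AM73 (SD, n = 3), so the group means differed in the same direction. Across AM73 replicates 1, 2 and 3 the probes fell (5.48, 5.13 and 4.52) while Ier2 rose. DMSO replicate 2 had the lowest background and the highest Ier2 of its group, whereas AM80 replicate 1 had the highest of both. As a covariate the probes left a difference of 1.10 (adjusted p = 0.0953 in limma). Background level and treatment differed together and cannot be told apart on these arrays. The part of the background in the Ier2 difference was not tested.

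Ier5 (cluster 17228349, chromosome 1, 155096367 to 155099636, minus strand), a relative of Ier2 linked to the heat shock response, showed a tight pattern in the treated groups. Its levels were 4.34, 4.33 and 4.41 with AM73 and 4.97, 4.85 and 4.78 with AM80, so these groups did not overlap. With DMSO they were 4.13, 4.25 and 4.92, and replicate 3 lay among the AM80 arrays. AM80 exceeded AM73 by 0.51 ± 0.18 (95% interval 0.09 to 0.92), which did not pass in limma (adjusted p = 0.0892). Without DMSO replicate 3, whose spread enters the common estimate, the same difference had an adjusted p of 0.00846. The difference from DMSO was 0.43 ± 0.18 with AM80 and −0.07 ± 0.18 with AM73 (adjusted p = 0.174 and 0.943). Without DMSO replicate 3 the AM80 value was 0.68 (adjusted p = 0.00575), while under poly-A scaling it turned to −0.41 (adjusted p = 0.172). In the authors' deposited table Ier5 had a q of 0.0236 between the compounds. It was the only one of the 9 genes with a q under 0.05 in any of the 3 comparisons. Of all 30860 genes, 3475 had such a q between the compounds, and only 3 with AM73 and 5 with AM80 against DMSO. Ier3 had q of 0.476 and 0.138 against DMSO.

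Of the Egr genes, Egr1 (cluster 17349514, chromosome 18, 34861207 to 34864984, plus strand), the family member most often used to report an immediate early response, read 3.32, 3.40 and 2.83 with DMSO. With AM73 it read 3.41, 3.33 and 3.59, and with AM80 3.40, 3.75 and 3.91. The groups overlapped, AM80 replicate 1 equalling DMSO replicate 2. The difference from DMSO was 0.50 ± 0.18 with AM80 (adjusted p = 0.103 in limma) and 0.26 ± 0.18 with AM73 (adjusted p = 0.757). DMSO replicate 3 was the lowest Egr1 array, opposite to its place in Ier3 and Ier5. Without it the differences were 0.33 with AM80 and 0.08 with AM73 (adjusted p = 0.269 and 0.990). Adding the bright background level to the fit gave an AM80 difference of 0.67 (adjusted p = 0.0342), and poly-A scaling gave −0.34 (adjusted p = 0.273).

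Egr2 (cluster 17233993, chromosome 10, 67535475 to 67542188, plus strand) acts early in fat cell differentiation in cultured mouse preadipocytes, upstream of Cebpb. Its levels were 3.48, 3.72 and 3.82 with DMSO, 4.35, 4.0 and 3.87 with AM73, and 3.67, 4.42 and 4.38 with AM80. All AM73 arrays lay above all DMSO arrays, by a narrow margin, while AM80 replicate 1 lay inside the DMSO range. The differences were 0.40 ± 0.21 with AM73 and 0.48 ± 0.21 with AM80 (adjusted p = 0.699 and 0.187). Without AM80 replicate 1 the AM80 value was 0.73 (adjusted p = 0.0347), and with array weights it was 0.63 (adjusted p = 0.0373), but it was −0.36 under poly-A scaling (adjusted p = 0.240). Egr2 between the compounds gave 0.08 (95% interval −0.39 to 0.56).

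Egr3 (cluster 17301718, chromosome 14, 70077445 to 70080157, plus strand), which like Egr1 acts downstream of receptor signalling, lay near the background medians. It read 2.29, 2.43 and 2.36 with DMSO, 2.91, 2.40 and 2.26 with AM73, and 2.35, 2.78 and 2.40 with AM80. A single array of each compound was raised, and the rest overlapped. Its mean lay at the 38.1st percentile of all genes, below the 40th percentile used as a filter on dim genes, so its differences of 0.16 and 0.15 from DMSO (adjusted p = 0.839 and 0.706) are weakly measured.

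**Figure D3:**
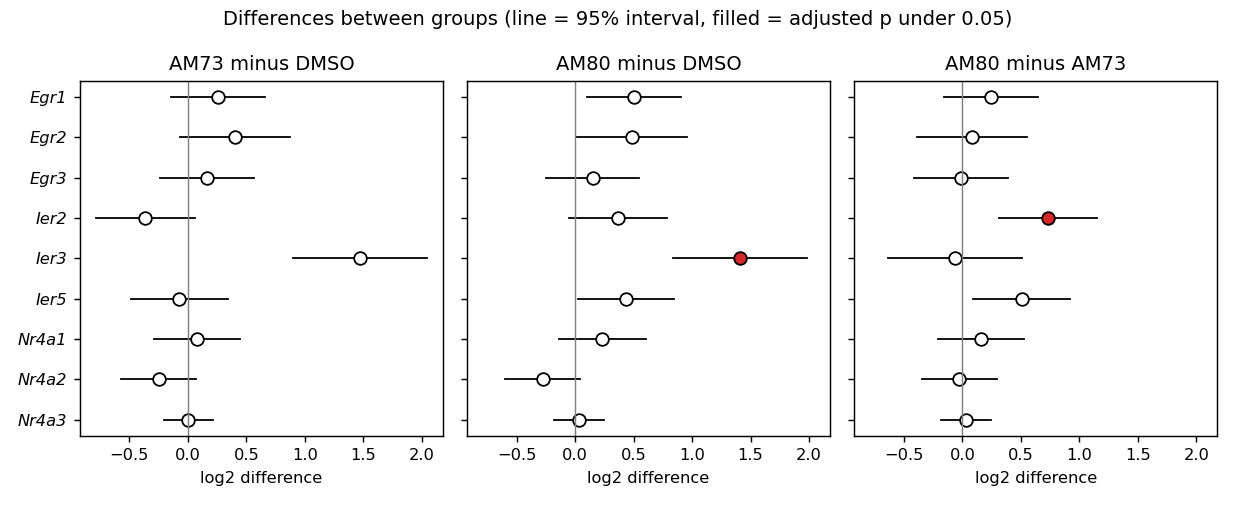
Log2 difference (horizontal axis) between groups for each of the 9 genes (vertical axis) in the 3 comparisons, with the 95% interval of the fit as a line and adjusted p under 0.05 as a filled point. Ier3 against DMSO (1.47 and 1.41) lies apart from the other genes, of which the next highest value against DMSO is 0.50, for Egr1 with AM80.

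The Nr4a genes lay closer together than the Ier genes. Nr4a1 (cluster 17315178, chromosome 15, 101266846 to 101274795, plus strand), the member best known for its rise after adrenergic stimulation, read 4.68, 4.10 and 4.66 with DMSO, 4.66, 4.35 and 4.66 with AM73, and 4.73, 4.66 and 4.75 with AM80. Replicate 2 was the lowest array of each group, and the rest of the arrays lay between 4.66 and 4.75. The differences from DMSO were 0.08 ± 0.16 with AM73 and 0.23 ± 0.16 with AM80 (adjusted p = 0.930 and 0.462 in limma). Their 95% intervals were −0.29 to 0.45 and −0.14 to 0.60. The low arrays with DMSO and AM73 are those of plate column 5, which also holds all AM80 arrays. With the column as a term the AM80 difference was 0.53 ± 0.13 (adjusted p = 0.0537), and within column 5 it was 0.61. Without DMSO replicate 2 it was 0.04 (adjusted p = 0.912). Under poly-A scaling it was −0.61 (adjusted p = 0.0461 in limma), beside a median of −0.80 for all genes.

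Nr4a2 (cluster 17385374, chromosome 2, 57106830 to 57124003, minus strand), best known from dopamine neurons, had lower means with both compounds. It read 3.87, 3.81 and 3.75 with DMSO, 3.83, 3.46 and 3.39 with AM73, and 3.60, 3.68 and 3.32 with AM80. Each AM80 array lay under the lowest DMSO array, as in 10.6% of all genes, whereas AM73 replicate 1 lay within the DMSO range. The differences were −0.25 ± 0.14 with AM73 and −0.28 ± 0.14 with AM80 (adjusted p = 0.714 and 0.282), and neither passed. Nr4a2 was the single gene of the 9 with a negative difference from DMSO under AM80, and it kept that sign in all 22 alternatives. Under poly-A scaling the AM80 difference was −1.12 and passed (adjusted p = 0.000915 in limma), while the AM73 difference turned to 0.04 (adjusted p = 0.946). With AM80 24222 of all 30860 genes passed in that setting, at a median of −0.80, so the call says little about Nr4a2.

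Nr4a3 (cluster 17413945, chromosome 4, 48045153 to 48086447, plus strand), the third receptor of the family, was at background. Its 9 levels ran from 2.21 to 2.39 and its group means were 2.28 ± 0.01, 2.28 ± 0.10 and 2.31 ± 0.03 (SD, n = 3). No difference was detectable at this signal (0.00 and 0.03 from DMSO, adjusted p = 0.997 and 0.894), and its mean lay at the 30.2nd percentile of all genes.

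Across the 9 arrays these genes did not share one profile. Of the 36 pairs, the highest Pearson correlation was 0.73, between Egr2 and Egr3, followed by 0.65 between Ier2 and Ier5, while Egr1 and Nr4a2 stood at −0.53. Ier3 correlated with Ier2 at −0.08 and with Ier5 at 0.46. These are descriptions over arrays that share groups and a normalization. Among 14228 other named genes above the dim-gene filter, the 2 whose profile was most like Ier3 were Mxi1, a MAX-binding antagonist of MYC (Pearson r = 0.988 over 9 arrays), and the glucose transporter gene Slc2a1 (r = 0.972). On DMSO replicate 3 both were the highest of the DMSO arrays, like Ier3, with Mxi1 at 7.09 against 6.56 and 6.45, and Slc2a1 at 8.73 against 7.86 and 8.06. The nearest profiles to Ier5 were the signalling adaptor Grb2 (r = 0.973) and Mfsd12 (r = 0.968), and to Ier2 Sgf29 (r = 0.955) and Elof1 (r = 0.946). For Egr1 they were Fbxo9 (r = 0.955) and Arhgef10 (r = 0.933), and for Egr2 Phf2 (r = 0.937) and Ppp1r13b (r = 0.921). Nr4a1 was nearest to Whrn (r = 0.974) and Eva1c (r = 0.966), and Nr4a2 to Aoc2 (r = 0.923) and Cyp2c66 (r = 0.917). Whrn ran only from 3.29 to 3.52 and Eva1c from 2.49 to 2.88, both lowest on DMSO replicate 2 and next on AM73 replicate 2. All these matches are the closest picked from 14228 genes over 9 arrays, and none was tested.

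Other genes of the immediate early response were read for comparison. Their lists were chosen with earlier results of these data known, and no test set them apart from all genes. Of 9 AP-1 and ATF genes, 2 rose with AM73 and 5 with AM80, and 0 fell in limma, where 0.12% and 13.9% of all genes were called in either direction; their median differences were 0.29 and 0.50, beside 0.08 and 0.37 for the 9 Egr, Ier and Nr4a genes and −0.02 and 0.04 for all genes. The AP-1 subunit Fosl1 read 5.10, 5.09 and 5.81 with DMSO, 7.14, 6.93 and 6.99 with AM73, and 7.37, 7.19 and 7.19 with AM80, so that, as for Ier3, DMSO replicate 3 was the highest control. It rose by 1.69 with AM73 and 1.92 with AM80 (adjusted p = 0.0165 and 0.00191). Fosl2 rose by 0.81 with AM73 and 0.75 with AM80 (adjusted p = 0.0412 and 0.00414). Of 33 further immediate early genes, 2 rose and 0 fell with AM73 (Bhlhe40, 0.86, and Homer1, 0.85), and 9 rose and 3 fell with AM80. Homer1 was among those that fell with AM80 (−0.44, adjusted p = 0.0386), and so was Tiparp, an ADP-ribosyltransferase gene induced by the aryl hydrocarbon receptor (−1.67, adjusted p = 0.00702). Arc, a cytoskeleton-associated protein gene first known from neurons, rose by 1.10 with AM80 (adjusted p = 0.0043).

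Relatives and regulators of the 9 genes are read against the same background, 0.12% of all genes called with AM73 and 13.9% with AM80, and no test set them apart from it. Of 4 relatives and corepressors, Ier5l rose by 0.86 with AM80 (adjusted p = 0.0135 in limma), while Egr4 and Nab2 did not pass. Nab1, a corepressor that binds Egr proteins, fell by 0.79 with AM80 (adjusted p = 0.0311 in limma). The Nab1 groups overlapped, AM80 replicate 3 (5.66) lying above DMSO replicate 3 (5.64). Of 27 upstream factors and kinases, 0 passed with AM73, and with AM80 5 rose and 8 fell in limma. Those that fell include Mef2a (−1.74, adjusted p = 0.00217), of the MEF2 factors that bind the Nr4a1 promoter in T cells, and Rps6ka3 (−1.73, adjusted p = 0.00217), a kinase that phosphorylates CREB. Of the related kinase genes, Rps6ka5 also fell (−1.36, adjusted p = 0.00272 in limma). Rps6ka4 (0.67, adjusted p = 0.0137 in limma) and Rps6ka1 (0.59, adjusted p = 0.0231) were among those that rose, and Rps6ka2 did not pass. Atf2 (−1.15, adjusted p = 0.00765 in limma) and Creb1 (−0.61, adjusted p = 0.0165) fell too. Of 13 genes for mRNA decay or for brakes on MAP kinase signalling, 0 passed with AM73. The phosphatase gene Dusp1 (0.65, adjusted p = 0.0220 in limma) was the 1 that rose with AM80. Of 6 adipogenic factors listed beside Egr2, Cebpa and Cebpd rose (0.64 and 0.47) and Pparg fell (−0.91) with AM80. Their adjusted p in limma were 0.034, 0.0452 and 0.00497. Any link of these changes to Egr2 was not tested. DMSO replicate 3 was the lowest control for Mef2a, at 7.53 against 8.47 and 8.04, and for Rps6ka3, at 7.40 against 8.10 and 7.86. Its part in these results was not tested.

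**Figure D4:**
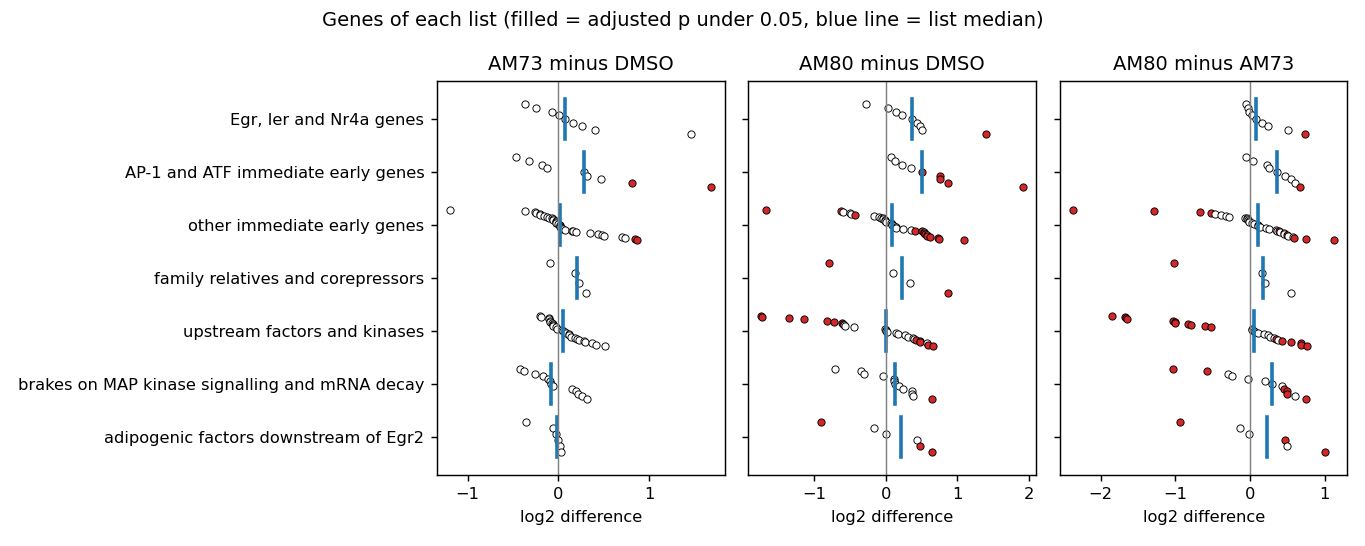
Log2 difference (horizontal axis, its range differing between panels) of each gene in 7 lists (vertical axis) for the 3 comparisons; filled points had an adjusted p under 0.05 and the blue line is the list median. In the Egr, Ier and Nr4a row 0, 1 and 1 of 9 points are filled, and in the AP-1 and ATF row 2, 5 and 1 of 9. List names are labels only, and no order of action between genes was tested.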

How the data were processed

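Expression was measured on 9 Affymetrix whole-transcript arrays, and 100 ng of total RNA was labelled per the labels. The deposited log2 values are RMA summaries (background-corrected, quantile-normalized, median-polished), per the file headers, with annotation from NetAffx build 35 for mm10. Affymetrix Expression Console 1.41 is named in the submitters' processing notes. A further deposited table gives each group's mean intensity on a linear scale, signed folds given here as a score, and p-value and q-value columns of a Student's t-test made by the authors; how the q-value was made is not given in the sources used here. The series' 2 tables hold the same log2 values (largest difference 0), and 0 of 36 pairs of arrays were identical.

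Of 41345 features, 33793 were gene features and 32202 carried a symbol. Symbols were updated by Entrez identifier (1913 renamed), and the cluster with the highest mean was kept per symbol, leaving 30860 genes. The members and lists were chosen with earlier results of these data known. All 9 members were named; of each list, genes past the threshold with the smallest adjusted p could be named, and for each of the 7 members above the 40th percentile the 2 genes with the most similar profile. None of the member clusters is given as cross-hybridising (0 of 9).

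All 9 arrays entered a single fit in limma 3.58.1 (lmFit and eBayes, R 4.3.3) with 6 residual degrees of freedom, tested on simulated data. Tests are two-sided, the threshold is an adjusted p under 0.05 (Benjamini-Hochberg over all genes), and intervals are 95% intervals of the fit. Folds printed are 2 to the power of the log2 difference. Figures used matplotlib 3.10.9. The number of arrays limits the precision. The bright background level of an array averages the 6 antigenomic probe sets with the highest signal. Alternatives were a filter on dim genes, every cluster of a gene, 3 other scalings, the groups compared alone, replicate and plate column terms, a background covariate, other moderation, array weights, the methods' t-test, and leaving out each array.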

Additional observations from a re-analysis of the deposited data

How the results depend on the processing

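Of 597 values of single genes under 23 alternatives, 518 kept their sign and their side of the threshold and 53 changed sign. Counted whatever the sign, 12 lost and 23 gained a call, 13 of the gains under poly-A scaling. A called value changed sign once, for Ier2 between the compounds under poly-A scaling (−0.397). The number of genes called among all genes ran from 0 to 124 for AM73, from 0 to 24222 for AM80 and from 0 to 28182 between the compounds, against 37, 4302 and 5907. Over any difference it ran from 0 to 27181 against 5216.

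Of the 9 genes, 0 were called with AM73, 1 with AM80, 1 between the compounds and 1 for any difference. With arrays centred on their medians these became 1 with AM73 and 0 between the compounds (2 at an unadjusted p under 0.05, by limma). Under poly-A scaling they became 1, 4, 8 and 7, where 124, 24222, 28182 and 27181 of all 30860 genes passed. With array weights they became 1 with AM73, 2 with AM80 and 2 for any difference. With the groups compared alone 2 passed between the compounds, and with the dim-gene filter or repeated quantile normalization 2 for any difference. With the plate column as a term 0 passed between the compounds (3 unadjusted), and within column 5, 0 passed with AM80, between the compounds or for any difference (3 with AM80 and 3 between the compounds unadjusted), but none of all genes passed there, so these counts say nothing about stability. With the background covariate 2 passed with AM80 and 0 between the compounds (3 unadjusted), and with the methods' t-test 0 with AM80 (1 unadjusted), while between the compounds Ier5 passed in place of Ier2. Leaving out 1 array gave 0 to 1 with AM73, 1 to 2 with AM80, 0 to 2 between the compounds and 1 to 2 for any difference.

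Apart from Ier2, signs turned in values that had not passed in the reported setting, and 8 of them passed with the opposite sign, all under poly-A scaling. There, where the median of all genes was −0.80 with AM80, the AM80 differences from DMSO were −0.337 for Egr1, −0.357 for Egr2, −0.69 for Egr3, −0.473 for Ier2, −0.407 for Ier5, −0.607 for Nr4a1 and −0.807 for Nr4a3, of which Egr3, Nr4a1 and Nr4a3 passed (adjusted p = 0.0242, 0.0461 and 0.0106 in limma). Those from AM73 were −0.883 for Egr1, −1.043 for Egr2, −0.62 for Ier5, −0.97 for Nr4a1 and −1.097 for Nr4a3. All of these passed (adjusted p from 0.000406 to 0.0342 in limma), where the median of all genes was −1.05. The AM73 differences from DMSO that turned were 0.213 for Ier5 and 0.037 for Nr4a2. Median centring gave −0.007 for Nr4a3 with AM80, and −0.01 for Egr2 and −0.063 for Nr4a3 between the compounds; quantile normalization again gave −0.041 for Nr4a3 there. With the plate column as a term, the compounds differed by 0.013 in Egr3, 0.268 in Ier3 and 0.023 in Nr4a2, and within column 5 by 0.11, 0.207 and 0.073. Within column 5 AM73 gave −0.07 for Egr1, −0.03 for Egr3, 0.08 for Ier5 and −0.07 for Nr4a3, and within column 7 −0.01 for Nr4a1. The background covariate gave −0.009 for Egr1 and 0.088 for Ier5 with AM73, and −0.035 for Egr2, −0.022 for Nr4a1 and −0.032 for Nr4a3 between the compounds. Array weights gave 0.013 for Ier5 with AM73 and 0.05 for Egr3 between the compounds. With 1 array left out, AM73 differences ran from −0.03 to 0.295 for Egr3, −0.225 to 0.17 for Ier5, −0.113 to 0.18 for Nr4a1 and −0.052 to 0.038 for Nr4a3. Differences between the compounds then ran from −0.048 to 0.327 for Egr2, −0.148 to 0.18 for Egr3, −0.193 to 0.117 for Ier3, −0.112 to 0.108 for Nr4a2 and −0.005 to 0.085 for Nr4a3. The cause was not tested.

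The replicate numbers did not pair the arrays: deviations of same-numbered arrays of different groups correlated at −0.298 to 0.068 across genes. With a replicate block, 0, 1, 1 and 1 of the 9 genes passed in the same order, and no call among them changed, while 6, 2999 and 5063 of all genes passed with AM73, with AM80 and between the compounds. Egr3 and Nr4a3 lay near the background probe medians, which limits what they can show.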
